A study of Mus musculus with 6 samples.

Results

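Genes of the interferon response and of RNA sensing were examined in mouse neural stem cells that had received a microRNA by transfection, to see whether they differed between miR-128 and a control RNA. The genes were selected by name, as 36 symbols: 7 sensors of foreign or double-stranded RNA, 9 signalling genes, 16 effectors and 4 genes of antigen processing. Of these, 35 had a row among the 20263 named genes of the table, and the row with the highest mean log2 value stood for a gene that had several. Isg15, a ubiquitin-like effector, is not analysed here because no row matched its symbol. The cells came from embryos of CD-1 albino mice at stage E14.5 and were grown as neurospheres, floating colonies of dividing neural stem and progenitor cells. They were nucleofected, a form of electroporation, with a miR-128 mimic or with miR-Control, and total RNA was taken after 72 h. Each group had 3 biological replicates and each RNA its own exon array. Both groups received an RNA, and no cells without RNA are analysed here, so a response shared by both is outside the comparison.

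Cells detect RNA that looks foreign through helicases in the cytoplasm and through endosomal receptors, which signal by way of interferon regulatory factors to switch on type I interferon. Secreted interferon binds the receptor chains Ifnar1 and Ifnar2 and acts through a complex that holds Stat2 and Irf9 on a shared promoter element. The induced genes block translation, degrade RNA, restrict viruses and raise antigen processing. Small RNAs introduced by transfection can trigger these sensors, and the genes are therefore a usual check in such experiments.

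The mature miR-128 of the 3p arm is shown with its seed, bases 2 to 8, in capitals, because it is the RNA whose addition separates the groups. It is encoded at chr1:128202404-128202424 on the plus strand (Mir128-1) and at chr9:112118644-112118664 on the minus strand (Mir128-2), from RefSeq, build GRCm38.p6. The labels do not state the sequence of the mimic.
mmu-miR-128-3p: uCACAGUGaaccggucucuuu

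The promoter element through which interferon acts holds a pair of GAAA words separated by 2 bases. A search on both strands for GAAANNGAAA, in windows from 250 bases before to 50 bases after each RefSeq gene start, found it in 14 of the 30 listed genes with a promoter in the table (46.7%). Over all 27025 genes with a promoter the share was 3.99%. Overlapping matches were counted for a gene once, and 6 listed genes had no promoter in the table. The windows below carry the match in capitals. They show the element in Eif2ak2, the member with the largest difference, beside those of another sensor, of a signalling gene and of effectors whose values follow. All are from build GRCm38.p6 and are written on the strand of the gene. Ifit1 and Ifit3 had 2 matches each, of which the one nearer the gene start is printed.
Eif2ak2, chr17:78882535-78882564, minus strand: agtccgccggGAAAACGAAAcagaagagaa
Ddx58, chr4:40239804-40239833, minus strand: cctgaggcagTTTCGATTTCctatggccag
Stat2, chr10:128270266-128270295, plus strand: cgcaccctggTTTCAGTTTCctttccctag
Ifit1, chr19:34640794-34640823, plus strand: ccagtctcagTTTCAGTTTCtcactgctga
Ifit3, chr19:34583397-34583426, plus strand: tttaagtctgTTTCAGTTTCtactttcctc
Cxcl10, chr5:92349083-92349112, minus strand: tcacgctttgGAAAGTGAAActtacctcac
Rsad2, chr12:26456553-26456582, minus strand: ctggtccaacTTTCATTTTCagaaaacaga
In Eif2ak2 and Ddx58 the match lay just past the gene start, at the start of the transcript, and in the others before it. A match is a description of these letters and no evidence of binding.

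The table holds deposited log2 values with no detection call, so the rows of 1022 olfactory receptor genes, which are not expected in these cells, served as a view of low signal. Their median log2 value was 4.73 and their 95th percentile 7.04. Of the 35 members 19 lay above that percentile, namely 4 of 7 sensors, 7 of 9 signalling genes, 5 of 15 effectors and 3 of 4 antigen processing genes. Among all named genes 12384 of 20263 lay above it. The receptor chain Ifnar1 and the mitochondrial adaptor Mavs were among those above. The effectors Mx1, Ifit1, Ifi44, Mx2 and Ifit3, whose products restrict viruses, lay between the 50.4th and the 62.5th percentile of the olfactory rows, so their signal could not be told from that of genes thought silent. Probes differ in brightness, and this comparison concerns signal and not RNA amount.

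**Figure D1:**
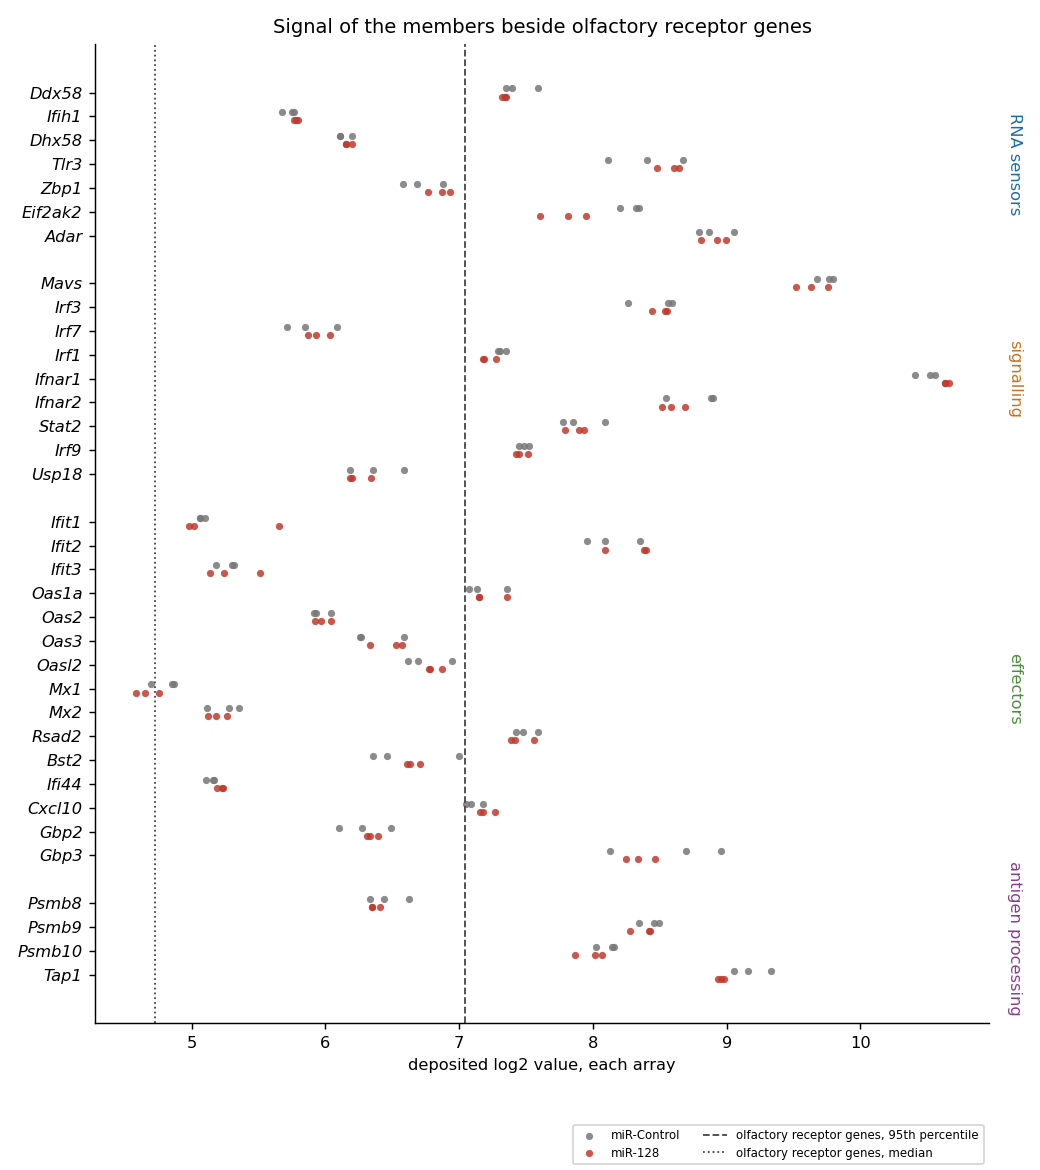
Deposited log2 value of each member on each array (3 miR-Control arrays in grey, 3 miR-128 arrays in red), by role. The dotted line is the median (4.73) and the dashed line the 95th percentile (7.04) of the olfactory receptor genes; 16 of 35 members have a mean at or below the dashed line, 10 of them effectors.

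Neural stem cell markers were well represented, with 9 of 10 above the same percentile, Prom1 being the exception. Of 13 microglia markers 4 lay above it, of 10 vascular and mesenchymal markers 2 and of 7 neuron markers 4. Array medians ranged from 7.40 to 7.54. A single control array, miR-Control replicate 3, was distant from the rest, at 42.5 on the first principal component (35.4% of the variance) against -18.7 to -0.226 for the others, and it had the narrowest interquartile range, 2.87 against 2.98 to 3.22. It was the highest of the 6 arrays in 7 of the 16 members of low signal and the lowest in none of them. Among the 19 members of higher signal it was the lowest in 7 and the highest in 5. In the members of low signal miR-Control replicate 1 was the lowest array in 9 of 16 and the highest in none. Among those of higher signal it was the lowest in 1 and the highest in 3.

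No member passed the test in either direction. In limma with Benjamini-Hochberg adjustment over all 32025 rows, 0 of 35 members had an adjusted p under 0.05, where the share over all named genes was also 0%. At an unadjusted p under 0.05 there was 1 member on the lower side, Eif2ak2, and 0 on the higher side. Over all genes 3.39% had such a p and were lower, and 3.74% were higher. Of the members 16 were lower with miR-128 and 19 higher, or 45.7% lower against 43.8% of all genes. The median log2 fold change was 0.01 in the members and 0.02 over all genes. The size of the log2 difference was under 0.2 in 32 of 35 members, Eif2ak2, Gbp3 and Tap1 being the exceptions.

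Groups whose 3 arrays did not overlap were seen in 6 members. Ddx58, Eif2ak2, Irf1 and Tap1 lay lower on all miR-128 arrays than on any control array, 11.4% of the members against 5.27% of all genes. Near ties were among them: the highest miR-128 value and the lowest control were 7.349 and 7.352 in Ddx58, and 7.278 and 7.291 in Irf1. Ifnar1 and Ifi44 lay higher, 5.71% of the members against 6.87% of all genes. On quantile-normalized values, and with arrays centred on their medians, 5 members in place of 6 had groups without overlap. The share of all genes was not computed for those settings. The labels call the samples biological replicates without naming cultures or litters, so p-values here measure the spread between these samples.

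**Figure D2:**
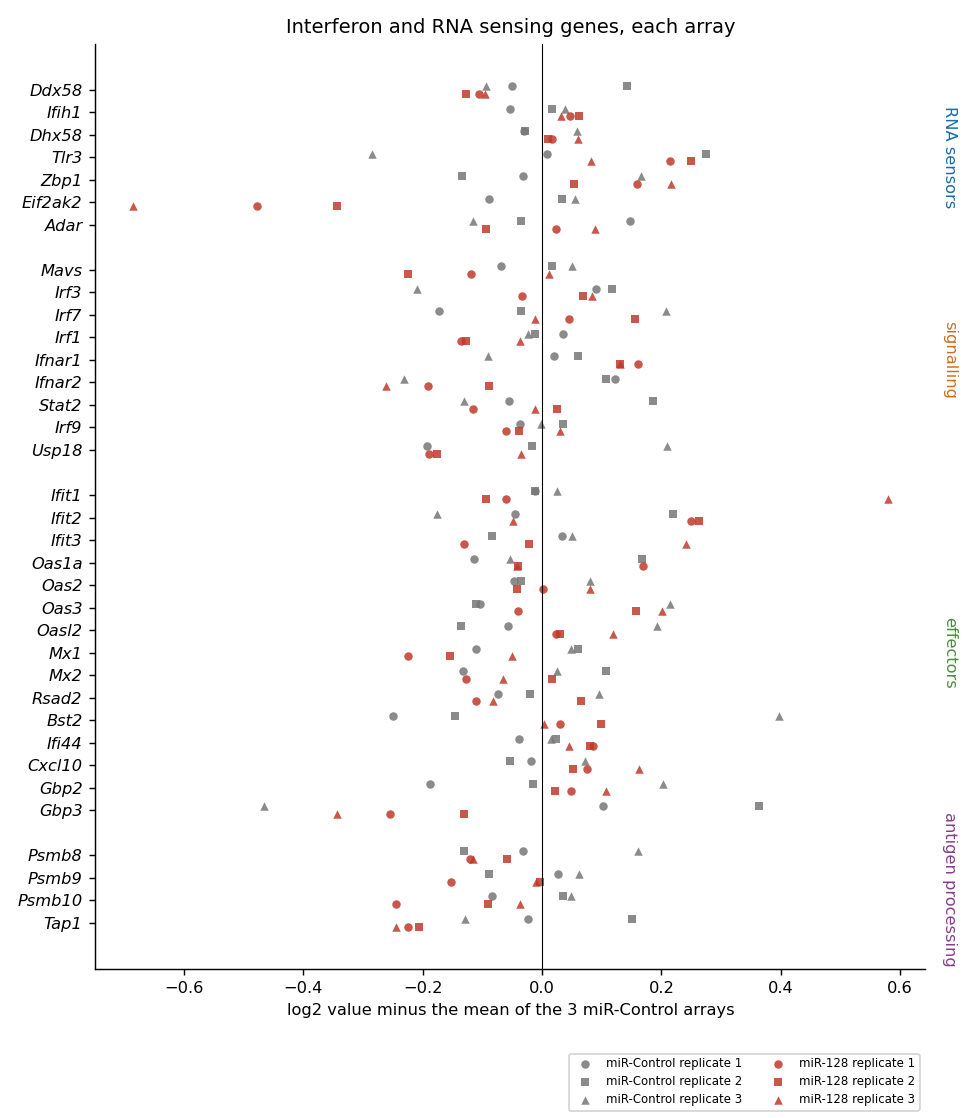
Each member's log2 value on each array minus its mean over the 3 miR-Control arrays (grey, controls; red, miR-128; marker shape, replicate number). All 3 miR-128 arrays of Eif2ak2 lie left of its controls, and most other members have both groups mixed around 0; miR-Control replicate 3 is far from the other controls in Gbp3 and Bst2.

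Among the sensors, Eif2ak2 had lower values with miR-128, while the other 6 differed by at most 0.18 on the log2 scale. Eif2ak2 encodes PKR, a kinase that is activated by double-stranded RNA and halts translation by phosphorylating eIF2 alpha. Its log2 values were 8.20, 8.32 and 8.34 on the control arrays, in the order of their replicate numbers, against 7.81, 7.94 and 7.60 with miR-128. The highest miR-128 array lay below the lowest control. The group means were 8.29 ± 0.08 and 7.79 ± 0.17 (SD, n = 3). The log2 fold change between them was -0.50 (SE 0.12, 95% interval -0.77 to -0.23), or 1.42-fold lower. The unadjusted p was 0.00235 and limma's adjusted p 0.391. Over 13 alternative settings the difference ran from -0.58 to -0.41, and the adjusted p from 0.132 to 1.00.

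Tlr3, an endosomal receptor for double-stranded RNA, had log2 values of 8.40, 8.67 and 8.11 in the controls, against 8.61, 8.64 and 8.48 with miR-128. The miR-128 arrays lay within the range of the controls, which were far apart. The log2 fold change was 0.18 (SE 0.15, adjusted p = 0.913), and 0.32 without miR-Control replicate 2 (unadjusted p = 0.0450) but 0.04 without miR-Control replicate 3.

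Zbp1, a sensor of Z-form nucleic acids linked to necroptosis, had 6.68, 6.58 and 6.88 in the controls, against 6.87, 6.77 and 6.93 with miR-128. The groups overlapped through miR-Control replicate 3, and the log2 fold change was 0.14 (SE 0.11, adjusted p = 0.913). Leaving out that array gave 0.23 (unadjusted p = 0.0543), and leaving out miR-Control replicate 2 gave 0.08. A further Zbp1 row gave 0.18.

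The helicases of the RIG-I family differed little. Ddx58, which encodes RIG-I, the sensor of RNA with a 5′ triphosphate, had 7.39, 7.59 and 7.35 in the controls, against 7.34, 7.32 and 7.35 with miR-128. These groups did not overlap, yet the log2 fold change was -0.11 (95% interval -0.35 to 0.13, adjusted p = 0.934), with miR-Control replicate 2 standing high; without it the difference was -0.04. Ifih1 (MDA5, a sensor of long double-stranded RNA) was at 0.05 (95% interval -0.17 to 0.26) and Dhx58 (LGP2, a regulator of the other helicases) at 0.03 (-0.19 to 0.25). Adar, which edits adenosines in double-stranded RNA and so hides self RNA from sensing, was at 0.01 (-0.25 to 0.26). The signs of Ifih1 and Dhx58 turned under quantile normalization, and that of Adar when arrays were centred on their medians.

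In the signalling genes 6 of 9 were lower and 3 higher, with a median log2 fold change of -0.03 and no member at an unadjusted p under 0.05. Ifnar1, the signalling chain of the type I interferon receptor, had 10.52, 10.56 and 10.41 in the controls, against 10.66, 10.63 and 10.63 with miR-128. All miR-128 arrays lay above all controls, by a small margin: the log2 fold change was 0.14 (95% interval -0.08 to 0.37, adjusted p = 0.871). Its partner chain Ifnar2 had 8.90, 8.88 and 8.55 in the controls, against 8.59, 8.69 and 8.52 with miR-128. Here miR-Control replicate 3 lay among the miR-128 arrays, and the log2 fold change was -0.18 (95% interval -0.47 to 0.11, adjusted p = 0.877), or -0.30 without that array (unadjusted p = 0.0175, adjusted p = 0.340). A further Ifnar2 row gave -0.12.

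The transcription factors that carry the signal gave differences close to 0. Irf7, the amplifying factor that interferon itself induces, had 5.71, 5.85 and 6.09 in the controls, against 5.93, 6.04 and 5.87 with miR-128. The miR-128 values fell inside the control range, and the log2 fold change was 0.06 (95% interval -0.22 to 0.35), which became 0.17 when miR-Control replicate 3 was left out and -0.02 when miR-Control replicate 1 was. Irf3, the factor activated first after sensing, was at 0.04 (-0.23 to 0.31), and its sign turned under array weights. Stat2 and Irf9, parts of the complex that binds the promoter element, were at -0.03 (-0.30 to 0.23) and -0.02 (-0.24 to 0.20).

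Irf1, a factor of interferon gamma signalling, had 7.35, 7.30 and 7.29 in the controls, against 7.18, 7.19 and 7.28 with miR-128. The groups did not overlap, with a gap that left miR-128 replicate 3 next to the controls, and the log2 fold change was -0.10 (SE 0.10, adjusted p = 0.935). Its other rows gave -0.18 and -0.13. Mavs, the adaptor of the RIG-I helicases, was at -0.11 (adjusted p = 0.935). Usp18, an induced protease that damps receptor signalling, had 6.18, 6.36 and 6.59 in the controls, against 6.19, 6.20 and 6.34 with miR-128. The groups overlapped, and its log2 fold change was -0.13 (95% interval -0.42 to 0.15, adjusted p = 0.932). It was -0.03 when miR-Control replicate 3 was left out and -0.23 when miR-Control replicate 1 was.

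Effectors, the genes that a full interferon response induces most, were higher in 11 of 15 members by small amounts, with a median log2 fold change of 0.04. Over all genes 11387 of 20263 were higher, with a median of 0.02. On quantile-normalized values 7 of 15 effectors were higher. Leaving out miR-Control replicate 1 or 2 also gave 7 of 15, and leaving out miR-128 replicate 3 gave 8 of 15. In contrast, leaving out miR-Control replicate 3 gave 12 of 15, and leaving out miR-128 replicate 2 gave 11 of 15. The count was 10 of 15 without miR-128 replicate 1, under array weights and with arrays centred on their medians. No effector had an unadjusted p under 0.05, and the lowest adjusted p was 0.892. Across the arrays the mean of the 15 effectors, relative to the controls' mean, was -0.07, 0.02 and 0.05 on the control arrays, against -0.02, 0.02 and 0.06 with miR-128, and the groups overlapped. Of the 16 members at or below the 95th percentile of the olfactory rows, 12 were higher, with a median of 0.05. Of the 19 above it 7 were higher, with a median of -0.04. The olfactory rows themselves were higher in 584 of 1022, with a median of 0.03. Microglia markers, of which 4 of 13 lay above that percentile, were higher in 12 of 13, with a median of 0.04. None of these markers had an unadjusted p under 0.05. Their mean log2 levels were 6.35 to 6.52 in the controls and 6.45 to 6.51 with miR-128. The part of microglia or of low signal in the effector values was not tested.

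Ifit1, which binds RNA that lacks the host's cap methylation, had log2 values of 5.06, 5.06 and 5.10 in the controls, against 5.02, 4.98 and 5.66 with miR-128. A single array, miR-128 replicate 3, stood above all others, while its 2 fellow miR-128 arrays had less signal than any control. The log2 fold change was 0.14 (95% interval -0.26 to 0.54, adjusted p = 0.957). Leaving out miR-128 replicate 3 turned it to -0.08. Ifit3, its partner, was also highest in that array, with 5.30, 5.18 and 5.32 in the controls, against 5.14, 5.24 and 5.51 with miR-128, and its difference of 0.03 turned to -0.08 without it. Ifit3 has a near-identical copy, Ifit3b, whose row was at -0.33, and the arrays may not separate them.

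Ifit2, a family member with a higher signal, had 8.09, 8.35 and 7.96 in the controls, against 8.39, 8.40 and 8.09 with miR-128. The groups overlapped, and the log2 fold change was 0.16 (95% interval -0.16 to 0.47, adjusted p = 0.928). It was 0.07 when miR-Control replicate 3 was left out and 0.27 when miR-Control replicate 2 was. Cxcl10, a chemokine induced strongly after sensing, had 7.09, 7.05 and 7.18 in the controls, against 7.18, 7.16 and 7.27 with miR-128. The values of miR-Control replicate 3 reached into the miR-128 range, and the log2 fold change was 0.10 (95% interval -0.13 to 0.32, adjusted p = 0.940). Rsad2, which encodes viperin, was at -0.04 (-0.28 to 0.20).

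The OAS genes encode enzymes that make a short nucleotide second messenger on sensing double-stranded RNA, and relatives of them. Oas1a was at 0.03 (95% interval -0.24 to 0.30), Oas2 at 0.01 (-0.21 to 0.24), Oas3 at 0.11 (-0.18 to 0.40) and Oasl2 at 0.06 (-0.21 to 0.32). The value of Oas3 was 0.21 when miR-Control replicate 3 was left out, and 0.05 when either of the other controls was. Oas1a and Oas2 turned sign under quantile normalization, and Oas1a has close copies that its probes may share. Mx1 and Mx2, dynamin-like antiviral GTPases, are represented by noncoding RefSeq accessions. Mx1 had 4.70, 4.87 and 4.86 in the controls, against 4.58, 4.65 and 4.76 with miR-128, at the level of the olfactory rows. The groups overlapped, and the log2 fold change was -0.14 (adjusted p = 0.892). Mx2 was at -0.06.

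The remaining effectors show how far 1 array can set a value. Gbp3, a guanylate-binding protein of the interferon gamma response, had 8.70, 8.96 and 8.13 in the controls, against 8.34, 8.46 and 8.25 with miR-128. The miR-128 arrays lay between miR-Control replicate 3 and the other controls. The log2 fold change was -0.24 (SE 0.19, adjusted p = 0.913), and -0.48 without miR-Control replicate 3 (unadjusted p = 0.00551, adjusted p = 0.288) but -0.06 without miR-Control replicate 2.

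Bst2, the tetherin that holds budding virus at the membrane, had 6.35, 6.46 and 7.002 in the controls, against 6.64, 6.70 and 6.61 with miR-128. Again miR-Control replicate 3 stood apart, here on the high side. The log2 fold change of 0.04 became 0.24 without that array (unadjusted p = 0.0338, adjusted p = 0.378). On quantile-normalized values it was -0.00384.

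Ifi44 had 5.11, 5.17 and 5.16 in the controls, against 5.23, 5.23 and 5.19 with miR-128. These groups did not overlap, but the log2 fold change was 0.07 (95% interval -0.14 to 0.29). Gbp2 was at 0.06 (-0.22 to 0.34).

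The 95% intervals give the size of rise that these arrays allow. Over all 35 members the highest upper bound was that of Ifit1, a log2 fold change of 0.54 or a 1.45-fold higher level, followed by Tlr3 at 0.52. The median upper bound of the effectors was 1.24-fold, and that of the sensors 1.20-fold. RMA values tend to understate true ratios, most of all where the signal is low, and 10 of the 15 effectors lay in that range.

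**Figure D3:**
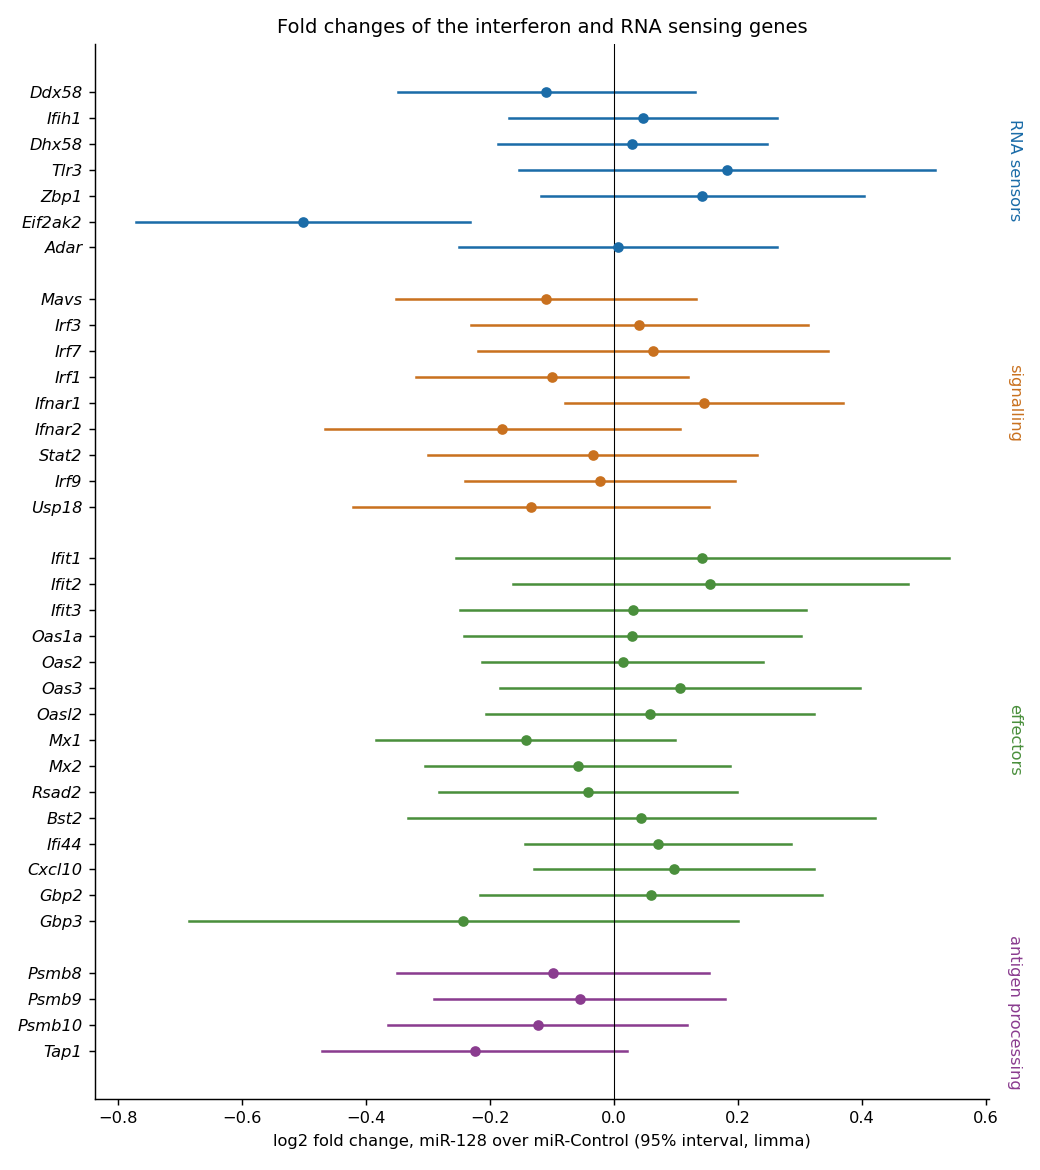
Log2 fold change of miR-128 over miR-Control for each member (point) with limma's 95% interval (line), coloured by role. The interval of Eif2ak2 (-0.77 to -0.23) is the only one of the 35 that does not include 0, and the highest upper end is that of Ifit1 (0.54).

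All 4 antigen processing genes had lower values with miR-128, with a median log2 fold change of -0.11, and none had an unadjusted p under 0.05. Tap1, a subunit of the peptide transporter of MHC class I, had log2 values of 9.16, 9.33 and 9.05 in the controls, against 8.96, 8.98 and 8.94 with miR-128. The miR-128 arrays lay close together and below every control. The group means were 9.18 ± 0.14 and 8.96 ± 0.02 (SD, n = 3). They differed by a log2 fold change of -0.22 (95% interval -0.47 to 0.02, adjusted p = 0.733), with -0.24 in a further row. The unadjusted p was 0.0687. It was 0.0358 on quantile-normalized values (limma's adjusted p = 0.57) and 0.0195 without miR-Control replicate 3 (adjusted p = 0.345). In those fits 8.38% and 12.5% of all genes had an unadjusted p under 0.05. Leaving out miR-Control replicate 1 gave an unadjusted p of 0.111. Leaving out miR-Control replicate 2 gave a log2 fold change of -0.15 (unadjusted p = 0.215).

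Psmb10, an inducible catalytic subunit of the immunoproteasome, had 8.02, 8.14 and 8.16 in the controls, against 7.86, 8.02 and 8.07 with miR-128. The groups overlapped, and the log2 fold change was -0.12 (95% interval -0.36 to 0.12, adjusted p = 0.923). The other inducible subunits were Psmb8 at -0.10 and Psmb9 at -0.06, or -0.02 each when miR-Control replicate 3 was left out. The mean of the 4 genes, relative to the controls' mean, was -0.03, -0.01 and 0.04 on the control arrays and -0.19, -0.09 and -0.10 with miR-128, and all 4 stayed lower whichever array was left out. Of the subunits that these replace in the constitutive proteasome, Psmb6 was at -0.33 (SE 0.12, unadjusted p = 0.0221, adjusted p = 0.611) and Psmb7 at -0.20 (adjusted p = 0.891); Psmb5 is not analysed here. The inducible and constitutive subunits were not tested against each other.

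Over the alternatives the role medians stayed small, the highest being 0.0940, for the effectors under array weights. The antigen processing median was below 0 in each of them, from -0.14 to -0.06. The medians of sensors and effectors changed sign on quantile-normalized values, to -0.00945 and -0.00312. With arrays centred on their medians they stayed above 0, at 0.00154 and 0.0159. The effector median was also below 0 among rows above the median level (-0.0426), and without miR-Control replicate 1 (-0.00929) or 2 (-0.00385). Leaving out miR-Control replicate 3 gave 5 members at an unadjusted p under 0.05, Eif2ak2, Gbp3, Ifnar2 and Tap1 lower and Bst2 higher, or 14.3% of the members against 12.5% of all genes in that fit.

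**Figure D4:**
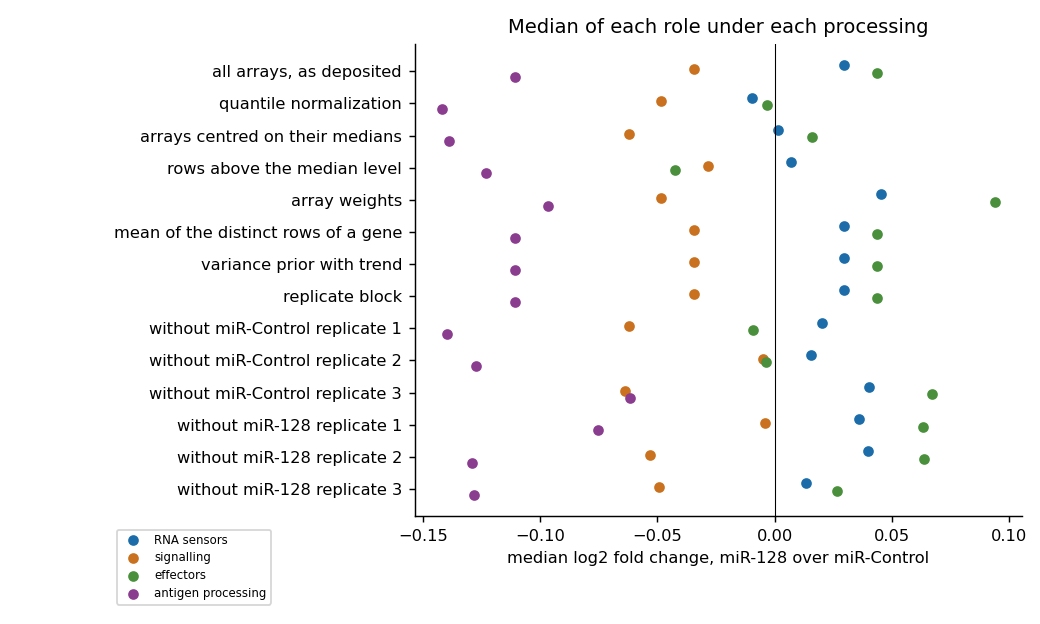
Median log2 fold change (x axis) of the sensors, signalling genes, effectors and antigen processing genes under the deposited values with all arrays and under each of 13 alternatives (y axis). The antigen processing medians lie between -0.14 and -0.06 in all of them, while those of sensors and effectors lie on both sides of 0.

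The wider pathway was described with 124 further measured genes in 8 lists. None passed adjustment in limma, 4 were lower and 4 higher at an unadjusted p under 0.05, and the median log2 fold change was 0.01. That is 6.45% of these genes against 7.13% of all genes. The list of genes that relay signals from sensors also held the sensors Tlr7, Tlr9 and Cgas. Of its 28 genes 15 were lower and 13 higher. Sting1, the adaptor of cytoplasmic DNA sensing, had 9.10, 9.31 and 8.85 in the controls, against 8.38, 8.69 and 8.53 with miR-128. No miR-128 array reached the lowest control, with a log2 fold change of -0.55 (SE 0.14, 95% interval -0.88 to -0.23, unadjusted p = 0.00400, adjusted p = 0.435), from -0.67 to -0.44 over the alternatives. Tbk1, the kinase that Mavs and Sting1 share, was at -0.19 (adjusted p = 0.871) and Ticam1, the adaptor of Tlr3, at 0.24 (adjusted p = 0.760).

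In the relay from the receptors 11 of 16 genes were higher, with a median of 0.07, where 11387 of all 20263 genes were higher. Of the 16 genes 5 lay higher on all miR-128 arrays than on any control, 31.25% against 6.87% of all genes. On the lower side 1 did so, 6.25% against 5.27%. The list was not tested as a set. Stat3, a factor that many cytokines activate, had 10.77, 10.79 and 10.67 in the controls, against 11.24, 10.97 and 11.22 with miR-128. All miR-128 arrays lay above all controls, and the log2 fold change was 0.40 (SE 0.11, 95% interval 0.14 to 0.65, unadjusted p = 0.00647, adjusted p = 0.472). Jak2, a kinase of the interferon gamma and other cytokine receptors, was at 0.33 (unadjusted p = 0.0281, adjusted p = 0.641). The kinases of the type I receptor were closer to 0, with Jak1 at 0.02 (95% interval -0.33 to 0.38) and Tyk2 at 0.06 (-0.20 to 0.32).

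Interferon genes themselves gave mostly low signals, with 2 of 11 measured genes above the 95th percentile of the olfactory rows. Ifnb1, the first interferon made after sensing, had 6.13, 6.15 and 6.54 in the controls, against 5.67, 6.48 and 6.64 with miR-128. The arrays of both groups were scattered, and the log2 fold change was -0.01 (95% interval -0.55 to 0.54). Ifna4 was at -0.54 (unadjusted p = 0.00720, adjusted p = 0.479) at the 27.1th percentile of the olfactory rows, where the signal is not told from that of silent genes. Ifnl2, a type III interferon, had 10.82, 11.04 and 11.40 in the controls, against 11.39, 11.41 and 11.49 with miR-128. Its signal lay above every olfactory row, miR-Control replicate 3 lay among the miR-128 arrays, and the log2 fold change was 0.34 (unadjusted p = 0.0487, adjusted p = 0.698). Leaving out miR-Control replicate 3 gave 0.50 (unadjusted p = 0.00216), and leaving out miR-Control replicate 1 gave 0.21 (unadjusted p = 0.185). Whether the probes of this bright row also bind other transcripts was not tested. The neighbouring copy Ifnl3 was at 0.16.

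**Figure D5:**
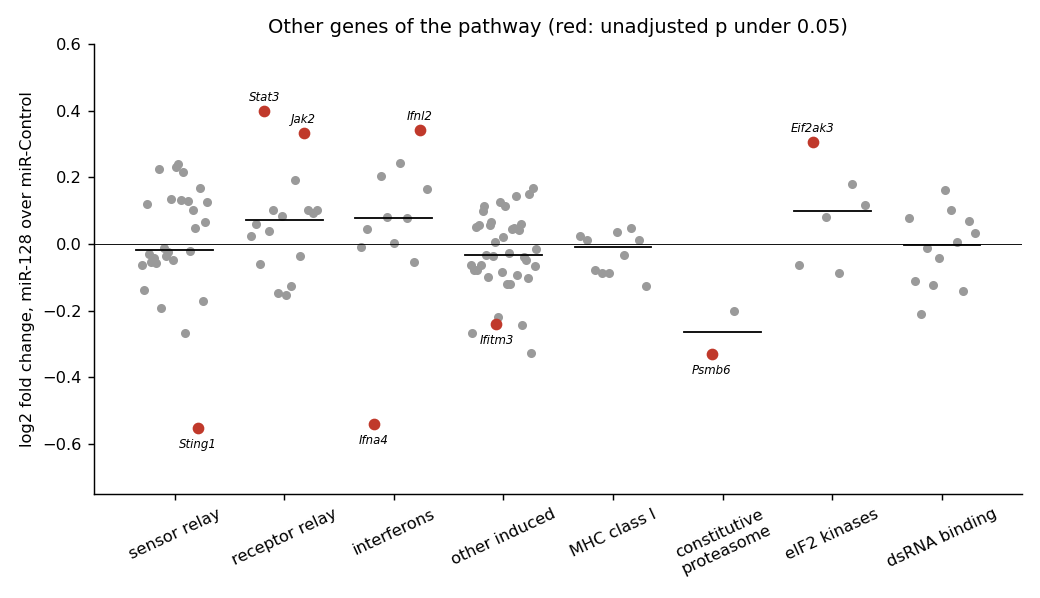
Log2 fold change of miR-128 over miR-Control (y axis) for 124 further genes of the pathway in 8 lists (x axis); black bars are list medians, and red named points have an unadjusted p under 0.05. The named genes are Sting1, Ifna4, Psmb6 and Ifitm3 on the lower side and Stat3, Jak2, Ifnl2 and Eif2ak3 on the higher side; none passed adjustment.

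Among 39 other interferon-induced genes 22 were lower and 17 higher, with a median of -0.03. Ifitm3, a membrane protein that blocks virus entry, was at -0.24 (unadjusted p = 0.0421, adjusted p = 0.678) and Samhd1, which depletes nucleotides, at -0.27 (adjusted p = 0.711). Genes of the MHC class I pathway, among them genes of peptide processing, were evenly divided, 5 of 10 lower. Psme2 was at -0.12 and Tap2, the partner of Tap1, at -0.09. Of 12 genes of double-stranded RNA binding proteins 6 were lower, with Ilf2 at -0.21 and Adarb1 at -0.14.

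Of the other kinases of eIF2, 1 lay higher with miR-128 and the rest were near 0. Eif2ak3, the kinase of endoplasmic reticulum stress, had 9.69, 9.73 and 9.64 in the controls, against 9.96, 9.98 and 10.04 with miR-128. All miR-128 arrays lay above all controls, and the log2 fold change was 0.31 (SE 0.10, unadjusted p = 0.0111, adjusted p = 0.532), from 0.28 to 0.33 over the alternatives. Eif2ak1 was at -0.06 (adjusted p = 0.976) and Eif2ak4 at 0.08 (adjusted p = 0.979), both with overlapping groups. The intervals of Eif2ak2 (-0.77 to -0.23) and Eif2ak3 (0.09 to 0.52) do not meet, and the difference between the genes was not tested. Ppp1r15a, a phosphatase subunit that reverses their action, was at 0.18 (adjusted p = 0.907).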

How the data were processed

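Deposited log2 expression values of 6 exon arrays were used. According to the submitters' processing notes the authors ran RMA in affy, with no version stated. Rows are RefSeq transcripts; how probes were grouped into them is not stated in the labels. Row names were matched without versions to the RefSeq table of GRCm38.p6, which named 25343 of 32025 rows. Promoters and the microRNA came from RefSeq tables of the same build.

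Groups and replicate numbers came from the sample titles. limma 3.58.1 in R 4.3.3 (lmFit, eBayes) was fitted to all rows, unpaired and two-sided, with no filter on low values, and Benjamini-Hochberg adjustment ran over all 32025 rows with a threshold of 0.05. A positive fold change means a higher value with miR-128. The fit was tested on simulated data that held no outlying array. That test does not show how the fit handles an array such as miR-Control replicate 3 or differences as small as those here. The number of arrays, 3 a group, limits the precision; the median SE over all rows was 0.13.

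The members, lists and alternatives were chosen with earlier results of these data known. Values by array are given for the 3 members of smallest p in each role (2 in antigen processing) and for others chosen after their values were seen. Pathway genes named are the 2 of smallest p in a list and a fixed set of kinases, factors and subunits; Ifnl3, Ifit3b and Prom1 were added after their values were seen. Some genes of that set are not reported here. Alternatives were quantile normalization, centring on array medians, rows above the median level, array weights, the mean of a gene's distinct rows, a variance prior with trend, the replicate number as a block, and leaving out each array.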

Additional observations from a re-analysis of the deposited data

How the results depend on the processing

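Over 13 alternatives no member passed adjustment, with a lowest adjusted p of 0.132 for Eif2ak2 under array weights, and 21 of 35 members kept their sign in all of them. Array weights gave 24 rows past adjustment over the whole table and 4 members at an unadjusted p under 0.05, Eif2ak2, Gbp3, Ifnar2 and Tap1, or 11.4% of members against 14.3% of all genes. Quantile normalization gave 2 such members, 5.71% against 8.38% of all genes, and medians of -0.00945 for sensors and -0.00312 for effectors; array weights gave an effector median of 0.0940. Among rows above the median level 15 members were left, of which 10 were lower and 3 had groups that did not overlap, 20.0% against 13.6% of all genes at that level; the median was -0.0426 for members and also for effectors, and 4 rows of the table passed adjustment. Of the genes at an unadjusted p under 0.05 the share higher with miR-128 was 52.4% as deposited and 37.4% with arrays centred on their medians.

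Leaving out 1 array gave 1 to 5 members at an unadjusted p under 0.05, where 3.75% to 12.5% of all genes had one. It left 6 to 18 members without overlap, a count that rises by construction with fewer arrays: 17.1% to 51.4% of members, against 17.4% to 34.7% of all genes. The highest of these came without miR-Control replicate 3; with all arrays the shares were 17.1% and 12.1%. It gave medians of -0.0346 to 0.0175 for members and -0.00929 to 0.0672 for effectors.

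Signs that turned belonged to small differences. Quantile normalization gave Ifih1 -0.00945, Dhx58 -0.0224, Ifit3 -0.00312, Oas1a -0.00948, Oas2 -0.0458 and Bst2 -0.00384. Centring gave Adar -0.0212 and Oas2 -0.0145, and array weights gave Adar -0.0758, Irf3 -0.0486 and Ifit3 -0.0262. Leaving out 1 array gave ranges of -0.0503 to 0.0812 for Adar, -0.0639 to 0.0992 for Irf3, -0.0230 to 0.17 for Irf7, -0.0992 to 0.0586 for Stat2 and -0.0764 to 0.26 for Ifit1. The ranges were -0.0758 to 0.11 for Ifit3, -0.0409 to 0.11 for Oas1a, -0.0200 to 0.0538 for Oas2, -0.0098 to 0.15 for Oasl2, -0.0965 to 0.00459 for Rsad2, -0.0813 to 0.24 for Bst2 and -0.0342 to 0.16 for Gbp2. The cause was not tested.

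Same-numbered samples had correlations of their deviations of -0.00279, 0.17 and 0.05. Differently numbered samples ranged from -0.24 to 0.19. The same-numbered values lay within that range, so the replicate number is not taken as pairing. With it as a replicate block Eif2ak2 had -0.50 (adjusted p = 0.424), again 0 members passed adjustment and 1 had an unadjusted p under 0.05. Signal over background is unknown, and for the 16 members of low signal a change may be understated.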

Other observations

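The promoter element was also followed beyond the listed genes. Of the measured genes 616 held GAAANNGAAA in their promoter window and 15227 with a promoter did not. The median log2 fold change was 0.02 in both sets. In the set with the element 271 genes were lower and 345 higher with miR-128, and 17 lower and 33 higher at an unadjusted p under 0.05 (8.12%), with 0 past adjustment in limma. Of the genes without it 527 were lower and 540 higher at that p (7.01%). Over all genes the share was 7.13%, made of 3.39% lower and 3.74% higher. The shares of the sets with and without the element pool both directions. Called genes with the element were mostly higher, and those without it were nearly even. The sets also differed in signal. Of the 616 genes with the element 96 lay at or below the median of the olfactory rows, against 1305 of 15227 without it. The olfactory rows themselves had 40 genes lower and 80 higher at that p. The split is given for the deposited values only, and the part of low signal in it was not tested. Among the 13 measured members with the element 5 were lower and 8 higher, and among the 16 without it 8 were lower and 8 higher. These are counts of genes and carry no test.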
